A study of Homo sapiens with 6 samples.

Results

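Transcripts of 58 genes of the long arm of chromosome 21 were examined along the chromosome in LNCaP cells, an established human prostate cancer cell line, with and without knockdown of FOLH1, the gene of the prostate-specific membrane antigen PSMA. The genes run from HSPA13 on the centromere side to PRMT2 near the end of the arm. They were chosen by name from genes placed on this chromosome, with results of the same knockdown against control comparison in view, so their differences between the groups are given as a description. Their calls in the fit across all genes are listed only beside the share of all genes called, and support nothing about the list. Of the 58 genes, 50 were measured, out of 9241 genes tested on the array. N6AMT1 is listed under its current symbol HEMK2. BACE2 and TRAPPC10 had their single-symbol probe sets under the signal filter, RUNX1 and TTC3 had only probe sets paired with several gene symbols, and MRPS6, PDXK, AGPAT3 and YBEY were not analysed here. The order along the chromosome was checked against RefSeq annotation of assembly GRCh38.p14: 11 of the 58 genes stood out of that order, by at most 2 places, and the annotated order is used below.

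The 6 arrays were 1-colour Affymetrix arrays of bulk total RNA. The control group was 3 arrays of untreated LNCaP cells in RPMI medium, and the other group was 3 arrays of LNCaP cells in RPMI medium after transduction with a retroviral short hairpin RNA against PSMA. Whether the controls carried a vector, whether the knockdown cells were 1 clone, and whether arrays of a group came from separate cultures is not stated, so the p-values below rest on array-to-array spread that may be purely technical. The array reports RNA only, and DNA copy number was not analysed here. In bulk RNA, a change in the share of cells with a transcript and a change in the amount per cell cannot be told apart.

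Chromosome 21 is the smallest human autosome, and nearly all of its known protein-coding genes lie on the long arm. An extra copy causes Down syndrome, in which many of its transcripts are more abundant. The arm holds no single pathway: neighbours there include subunits of interferon and interleukin receptors, enzymes of ubiquitin removal and purine synthesis, splicing and ribosome assembly factors, and the amyloid precursor protein.

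The arrays behaved as 2 tight groups. The SD of log2 differences over all genes tested ran from 0.140 to 0.169 between arrays of the same group and from 0.364 to 0.377 between arrays of different groups, and median intensities ran from 48.2 to 50.3. The 3 probe sets shared by FOLH1 and its near-identical copy FOLH1B were lower in knockdown arrays, with log2 differences of -2.73 to -2.23, and the dimmer FOLH1 probe set differed by -0.79. Control probe sets also separated the groups. The 18 probe sets of the hybridisation controls averaged 11.34 ± 0.08 on the log2 scale in control and 10.51 ± 0.13 in knockdown arrays (SD, n = 3). The 5′ minus 3′ signal of beta-actin, GAPDH and 4 poly-A controls was lower in knockdown arrays, by log2 differences of -0.97 to -0.10. Each of these measures had p = 0.1 in an exact permutation test, two-sided, the smallest value that 3 arrays against 3 allow. Their part in the differences below was not tested.

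Of the luminal prostate markers, 7 of 9 were measured, and their summed intensity overlapped between groups, at 5024 to 5406 in control and 4856 to 5481 in knockdown arrays. KRT18, the brightest of them at a mean log2 of 11.57 in both groups, weighs most in this sum. The kallikrein genes differed in opposite directions, with KLK3 at -0.71 and KLK2 at 0.41. TMPRSS2, itself on chromosome 21, differed by 0.28, HOXB13 by -0.25 and the knockdown target FOLH1 by -0.79. KRT8 and KRT18 overlapped between groups. Leukocyte markers (2 of 5 measured) summed to 38.7 to 45.4 in control and 40.4 to 42.8 in knockdown arrays, and endothelial markers (2 of 3) to 56.6 to 60.8 and 55.3 to 64.7. The defining markers PTPRC and CDH5 stayed under the filter. Fibroblast and smooth muscle markers (5 of 7) summed higher in knockdown arrays, at 468 to 487 against 387 to 390, with COL1A2 and LUM under the filter. In that list COL3A1 differed by 1.01 and ACTA2 by 0.95, while VIM differed by -0.28 and COL1A1 by 0.02. Neuroendocrine markers (3 of 4) summed lower, at 70.7 to 87.5 against 90.3 to 99.4, with CHGA under the filter, and here ENO2 differed by -0.58 while SYP and NCAM1 overlapped between groups. The 1 basal marker measured, KRT5 of 3 listed, lay at 21.5 to 24.5 in control and 21.9 to 23.1 in knockdown arrays. The part of these markers in the chromosome 21 differences was not tested.

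Most of the 50 measured genes were somewhat more abundant in PSMA knockdown cells. Their median log2 difference, knockdown minus control, was 0.34, with quartiles of 0.12 and 0.42, against a median of 0.03 and quartiles of -0.13 and 0.17 over all 9241 genes tested. These values are of the brightest probe set of each gene, and averaging each gene over its probe sets gave a median of 0.17. The difference was above 0 for 44 of the 50 genes and below 0 for 6, and it was above 0 for 54.9% of all genes tested. The shift was small for single genes, since only 1 of the 50, LTN1, differed 2-fold. Taking each gene relative to its control mean, the median over the 50 genes was -0.01, -0.01 and 0.01 in the control arrays. It was 0.34, 0.34 and 0.26 in the knockdown arrays, while over all genes the knockdown arrays lay at 0.03, 0.03 and 0.01. The lowest knockdown array was replicate 3. Control arrays lie near 0 here by construction, and the genes were chosen with this comparison in view. The medians by array are therefore a description only.

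In limma, with p-values adjusted by Benjamini-Hochberg over the 9241 genes, 32 of the 50 genes had an adjusted p under 0.05, where 35.9% of all genes tested did. Of these, 30 had a higher level in knockdown cells (19.4% of all genes tested) and 2 a lower level (16.5%). The 2 lower genes were APP and SUMO3. The SUMO3 call was lost without control replicate 1, 2 or 3 or without knockdown replicate 2, and 1 lower call remained without control replicate 2 or 3 or knockdown replicate 2. The 3 knockdown arrays all lay above the 3 control arrays for 34 genes, against 27.0% of all genes tested, and all below them for 2 genes, against 22.4%. Without control replicate 1, the arrays lay below for 4 genes. Because the genes were chosen with this comparison in view, nothing is read from these counts.

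**Figure D1:**
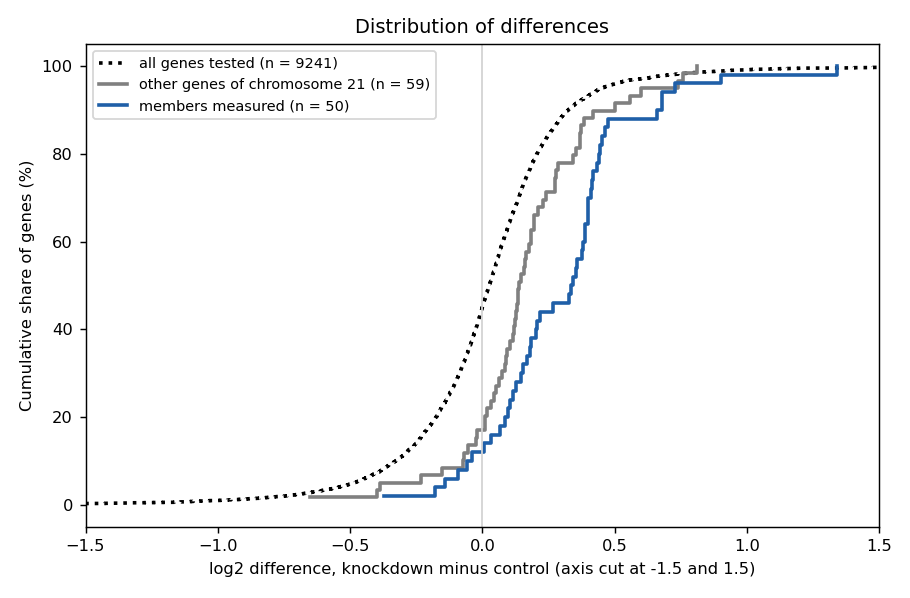
Cumulative distribution of the log2 difference, knockdown minus control, for the 50 measured genes of interest (members), the 59 other measured genes of chromosome 21 and all 9241 genes tested, with the axis cut at -1.5 and 1.5. The curve of the 50 genes lies furthest right over most of its range, with medians of 0.34, 0.14 and 0.03 in that order.

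Genes of the chromosome that were not on the list were also mostly higher. The 59 other measured genes had a median difference of 0.14 with quartiles of 0.05 and 0.28, and 49 of them lay above 0. Over all 109 measured genes of the chromosome the median was 0.18 and 85.3% lay above 0. That median was the highest among the 24 chromosomes, followed by chromosome 6 at 0.141, but it includes the listed genes. Since those were chosen with this comparison in view, nothing is read from the rank. The 59 unlisted genes alone had a median of 0.137, below that of chromosome 6. Chromosome 13 had the lowest median, at -0.27. The largest positive differences outside the list were those of the collagen VI chain COL6A1 (0.81, SE 0.05), the transcription factor SIM2 (0.76, SE 0.10) and the ribosome biogenesis factor URB1 (0.74, SE 0.12). The most negative were those of CBS, the cystathionine synthase (-0.65, SE 0.06), the neural adhesion protein NCAM2 (-0.40, SE 0.08) and the histone gene H2BC12L (-0.39, SE 0.05). CBS and H2BC12L have near-identical copies, so their probe sets may read more than 1 gene.

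Along the chromosome, the median was above that of all genes in each of 4 consecutive runs of neighbours. It was 0.17 over the 13 measured genes from HSPA13 to BACH1, 0.38 over the 12 from SYNJ1 to RUNX1, 0.20 over the 7 from CBR1 to BACE2 and 0.36 over the 18 from C2CD2 to PRMT2. With probe sets averaged per gene, the median of SYNJ1 to RUNX1 was 0.15, the lowest of the 4 runs, and that of C2CD2 to PRMT2 was 0.22. Without probe sets marked x_at or s_at, that of HSPA13 to BACH1 was 0.084. The order of the runs thus depended on how probe sets were chosen. Unlisted genes in the same runs had medians of 0.18, 0.10, 0.15 and 0.13. A running median over 9 neighbouring measured genes of the chromosome stayed above 0 in all 101 windows, with a low of 0.07 in the window from IFNGR2 to ATP5PO and a high of 0.38 in the window from RIPK4 to PKNOX1. With unlisted genes skipped, the longest uninterrupted stretch of listed genes above 0 held 16 genes, from ADAMTS1 to DONSON. The unlisted gene SCAF4, at -0.07, lies within it. TMEM50B, at 0.01, is also part of it and changed sign without control replicate 1 or knockdown replicate 1. Nothing is read from the length of this stretch, since the listed genes were chosen with this comparison in view. The differences were not graded from one gene to the next. Pearson's r between neighbouring listed genes was -0.27 over 49 pairs, given as a description across genes of the same 6 arrays. Direct neighbours differed from each other by a median of 0.22, close to the 0.26 found over all pairs of these genes.

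**Figure D2:**
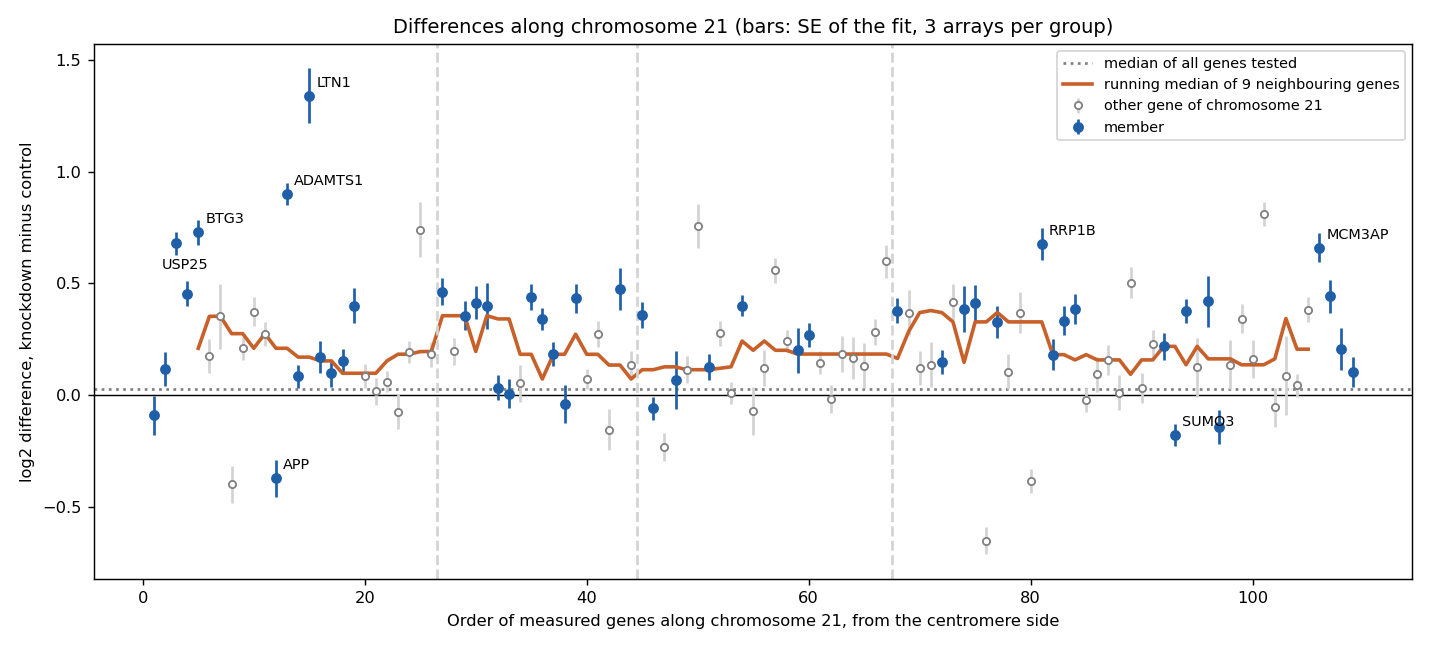
Log2 difference, knockdown minus control, for the 109 measured genes of chromosome 21 in their order from the centromere side, with bars for the SE of the fit (3 arrays per group) and dashed lines between the 4 runs. Filled points are the 50 genes of interest (members), open points the other genes. The running median of 9 neighbours stays between 0.07 and 0.38, and LTN1 is the only gene beyond 1.

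The largest difference was that of LTN1, which encodes listerin, the ubiquitin ligase that marks unfinished peptides on stalled ribosomes. Its log2 intensities were 8.57, 8.67 and 8.98 in control and 9.93, 10.04 and 10.26 in knockdown arrays, a difference of 1.34 (SE 0.12), or 2.53-fold. The lowest knockdown array lay 0.95 above the highest control array. ADAMTS1, a secreted metalloprotease that cleaves extracellular matrix proteoglycans, lay at 10.27, 10.33 and 10.30 in control and 11.25, 11.16 and 11.20 in knockdown arrays, a difference of 0.90 (SE 0.05). Neither gene overlapped between the groups, and both lie in the stretch nearest the centromere together with BTG3 and USP25.

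BTG3, an antiproliferative protein of the BTG/TOB family, measured 8.84, 8.99 and 8.94 in control and 9.65, 9.66 and 9.65 in knockdown arrays, a difference of 0.73 (SE 0.06). A second BTG3 probe set gave 0.74. USP25, a deubiquitinating enzyme, measured 8.09, 8.11 and 8.21 against 8.80, 8.80 and 8.84, a difference of 0.68 (SE 0.05). The controls of both genes were more spread than their knockdown arrays, and the groups stood apart by 0.66 and 0.59. CXADR, the coxsackievirus and adenovirus receptor of epithelial junctions, lies between them and differed by 0.45.

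APP, which encodes the amyloid precursor protein, was the most negative of the listed genes and lies beside this group of higher genes. It measured 9.45, 9.39 and 9.69 in control and 9.12, 9.20 and 9.08 in knockdown arrays, a difference of -0.37 (SE 0.08). A second APP probe set differed by -0.33, and the third read 5.59 in all 6 arrays. The groups did not overlap on the first or the second of them. HSPA13, a microsomal chaperone of the HSP70 family at the start of the list, measured 8.66, 8.70 and 8.84 against 8.50, 8.64 and 8.79, and its groups overlapped. On its second probe set they did not, with a difference of -0.24.

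**Figure D3:**
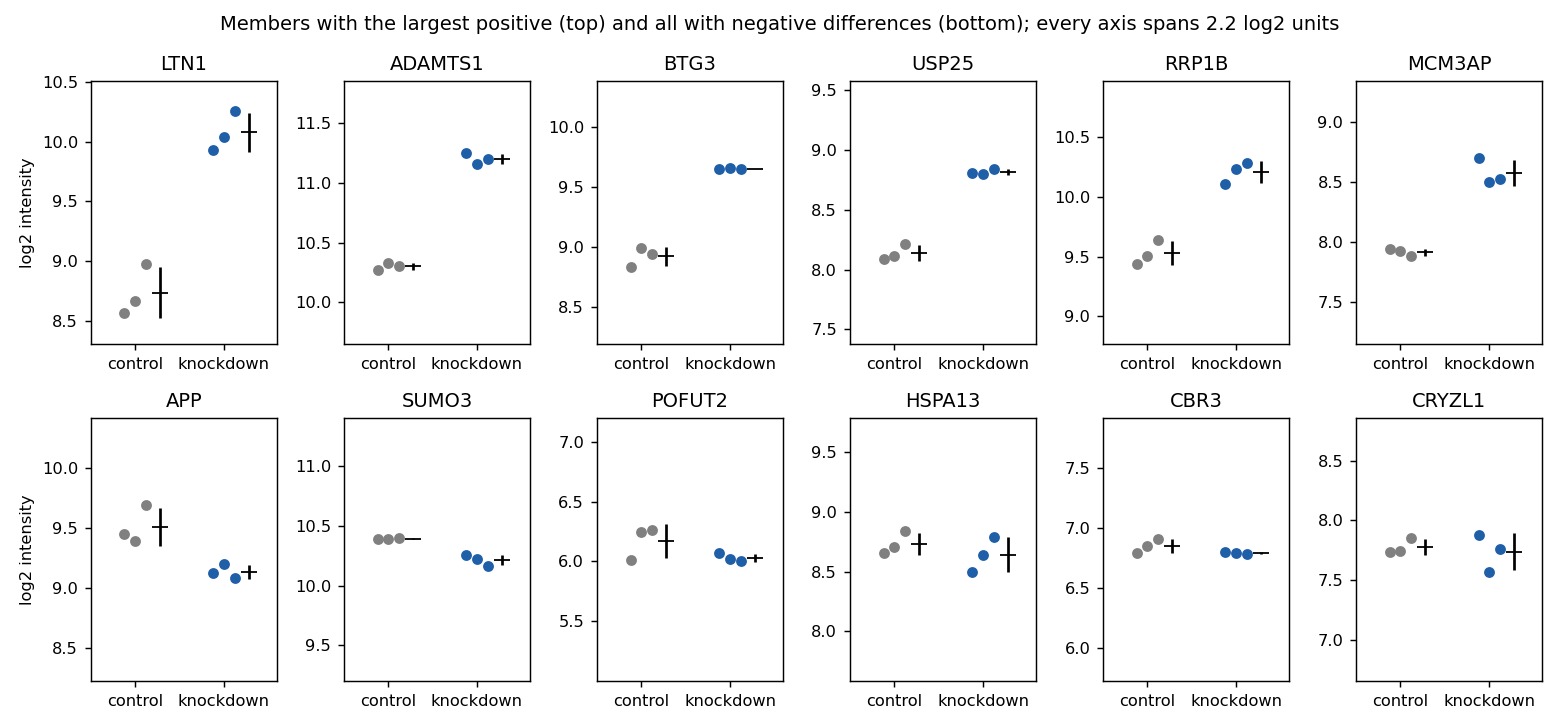
Log2 intensity in each of the 3 control (grey) and 3 knockdown (blue) arrays for the 6 genes with the largest positive and the 6 with a negative difference, with the mean and SD of each group in black. The groups stand apart in all 6 upper panels, by 0.95 for LTN1, and in the lower row for APP and SUMO3.

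Upstream sequences are shown for 3 of the 4 genes with the largest positive differences and for APP as the most negative gene. A pair of genes that share 1 promoter interval, GART and SON, was added after values were seen. The 2 differed alike on their brightest probe sets only, since another SON probe set differed by -0.97 and another GART probe set by 0.06. All were taken from RefSeq promoter windows of GRCh38.p14. A gene can have several annotated starts, and 1 was used per gene. For LTN1, USP25 and BTG3 it was the first listed, and for APP the one furthest upstream, so the stretches were not chosen alike. The first 4 are the 150 bases before that start, read 5′ to 3′ on the gene's own strand: LTN1 at chr21:28992878-28993027 on the minus strand, USP25 at chr21:15729832-15729981 on the plus strand, BTG3 at chr21:17612902-17613051 on the minus strand and APP at chr21:26171129-26171278 on the minus strand. The last is the whole 144-base interval between the outermost annotated base of GART, on the minus strand, and the start of SON, on the plus strand, at chr21:33542894-33543037, read on the plus strand. Capitals mark matches to 4 motifs, searched on either strand. The GC box, bound by factors of the Sp family, was spelled GGGCGG. The core motif of ETS factors was spelled CCGGAAG. The CCAAT box was searched by the letters of its name, and the TATA box was spelled TATAAA. No marked motif overlapped one of another kind.
LTN1: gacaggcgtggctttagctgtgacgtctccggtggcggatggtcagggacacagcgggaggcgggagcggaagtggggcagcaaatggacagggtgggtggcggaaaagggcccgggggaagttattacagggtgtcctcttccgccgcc
USP25: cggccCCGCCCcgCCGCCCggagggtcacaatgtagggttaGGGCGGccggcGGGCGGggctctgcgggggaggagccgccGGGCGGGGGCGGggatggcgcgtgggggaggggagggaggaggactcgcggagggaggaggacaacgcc
BTG3: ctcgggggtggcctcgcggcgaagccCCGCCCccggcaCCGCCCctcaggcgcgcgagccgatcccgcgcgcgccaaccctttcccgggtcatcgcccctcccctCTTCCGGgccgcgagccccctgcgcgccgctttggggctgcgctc
APP: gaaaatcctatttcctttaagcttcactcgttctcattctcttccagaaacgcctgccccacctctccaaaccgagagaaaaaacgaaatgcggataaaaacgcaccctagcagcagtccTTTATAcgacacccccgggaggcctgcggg
GART and SON: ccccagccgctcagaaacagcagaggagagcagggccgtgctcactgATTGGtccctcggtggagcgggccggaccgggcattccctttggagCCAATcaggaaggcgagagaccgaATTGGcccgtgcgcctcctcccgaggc

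In these stretches USP25 held 6 GC boxes and BTG3 held 2 with 1 ETS motif. APP held 1 match to TATAAA, which stood on the strand opposite to the gene and so does not mark a TATA box of APP. The GART and SON interval held 3 CCAAT boxes, and LTN1 held none of the 4 motifs. Bases G and C made up 80.0% of the USP25 and BTG3 stretches, 65.3% of that of LTN1, 66.7% of the GART and SON interval and 50.7% of that of APP. Promoter windows of 300 bases, 250 before and 50 after the start, were found for 48 of the 58 genes, which had 80 windows. A GC box stood in 63.7% of the 80 windows and in 56.3% of all 22199 windows of protein-coding genes, and the ETS motif in 21.2% and 12.8%. CCAAT boxes stood in 26.2% and 34.7%, and TATAAA in 11.2% and 9.47%. The median GC content was 69.7% for the 80 windows and 62.3% for those of protein-coding genes. These are counts of letters, with no measurement of binding.

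The genes are taken by role below, in groups formed after their values were seen. Of the ubiquitin and SUMO pathway, 5 of 6 listed genes were measured. Besides LTN1 and USP25, the ubiquitin-conjugating enzyme UBE2G2 differed by 0.22 and USP16, a deubiquitinase that acts on histone H2A, by 0.10. USP16 overlapped between groups. A second UBE2G2 probe set differed by -0.09 without overlap, so no direction is given for UBE2G2. SUMO3, a small ubiquitin-like modifier, measured 10.39, 10.39 and 10.40 in control and 10.25, 10.22 and 10.16 in knockdown arrays, a difference of -0.18 (SE 0.05) on its brightest probe set. A second SUMO3 probe set went the other way, from 8.61, 8.61 and 8.67 to 9.32, 9.38 and 9.19, a difference of 0.67, so no direction is given for SUMO3. On both probe sets the groups did not overlap. The 3 probe sets paired with both SUMO2 and SUMO3 differed by -0.05 to 0.01.

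On their brightest probe sets, the 8 measured genes of RNA processing and ribosome assembly differed by 0.33 to 0.68 without overlap, where 27.0% of all genes tested were higher without overlap, and nothing is read from this count. RRP1B, a nucleolar protein of ribosomal RNA processing, measured 9.44, 9.51 and 9.64 in control and 10.10, 10.23 and 10.28 in knockdown arrays, a difference of 0.68 (SE 0.07), while its other probe set differed by 0.04. Its relative RRP1 differed by 0.33 and PWP2, a subunit of the small subunit processome, by 0.39. WDR4, part of a transfer RNA methyltransferase, differed by 0.39. Its call was lost without control replicate 2 or 3 or without knockdown replicate 1 or 2.

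MCM3AP, which links transcription to messenger RNA export, measured 7.94, 7.93 and 7.88 in control and 8.70, 8.50 and 8.52 in knockdown arrays, a difference of 0.66 (SE 0.07). Its other probe sets past the filter differed by 0.13 and 0.01. The splicing factor U2AF1, whose near-identical copy the probe set may also read, differed by 0.33. ADARB1, an adenosine deaminase that edits RNA, differed by 0.42 on its brightest probe set and by 0.07 and -0.08 on the others, and its call was lost without knockdown replicate 1 or 2. Size thus depended on the probe set for RRP1B and MCM3AP, and direction did so for ADARB1.

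SON, a large splicing co-factor of nuclear speckles, showed the widest disagreement between probe sets. Its brightest measured 10.49, 10.40 and 10.43 in control and 10.78, 10.78 and 10.77 in knockdown arrays, a difference of 0.34 (SE 0.05). Another 2 differed by 0.34 and 0.32. The fourth measured 9.98, 10.04 and 9.69 in control and 9.11, 8.51 and 9.15 in knockdown arrays, a difference of -0.97. Its groups did not overlap either, so 3 of 4 SON probe sets were higher in knockdown cells and 1 was lower. Where the probe sets lie along the transcript was not analysed here.

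GART, on the other side of the shared interval, encodes an enzyme with 3 activities of de novo purine synthesis. It measured 8.88, 8.93 and 9.01 in control and 9.42, 9.40 and 9.30 in knockdown arrays, a difference of 0.44 (SE 0.06), with no overlap. Its other probe sets past the filter differed by 0.40 and 0.06. In the other pair of listed genes with facing starts and both measured, the differences were unlike. CRYZL1, a quinone oxidoreductase-like protein, and ITSN1, an endocytic scaffold, start 760 bases apart on opposite strands and differed by -0.04 and 0.43. CRYZL1 measured 7.74, 7.75 and 7.85 against 7.88, 7.57 and 7.76, with overlapping groups.

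Next to them lies a cluster of cytokine receptor subunits. IFNAR1 and IFNAR2 form the type I interferon receptor, IL10RB is shared by the receptors of interleukin 10 and type III interferons, and IFNGR2 is a chain of the interferon gamma receptor. IFNAR2 measured 7.03, 7.08 and 7.01 in control and 7.48, 7.43 and 7.27 in knockdown arrays, a difference of 0.36 (SE 0.07), and its second probe set differed by 0.57. IL10RB measured 6.10, 6.05 and 6.10 against 6.64, 6.49 and 6.37, a difference of 0.41 (SE 0.07). In both genes the groups stood apart, by 0.19 and 0.27.

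IFNAR1 was dimmer, at 5.03, 4.88 and 4.64 in control and 5.37, 5.19 and 5.19 in knockdown arrays, a difference of 0.40 (SE 0.10). Its call was lost without knockdown replicate 1. IFNGR2 measured 8.54, 8.48 and 8.42 against 8.49, 8.57 and 8.49, and the groups overlapped. IFNGR2 differed by 0.03. TMEM50B, a small membrane protein beside IFNGR2, differed by 0.01. Among other cell surface genes, PTTG1IP, a binding partner of securin, differed by 0.38.

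Of the 9 measured transcription and chromatin genes, 4 were higher without overlap on their brightest probe set, against 27.0% of all genes tested, and 5 overlapped. Apart from BTG3, BACH1, a repressor of heme oxygenase and other oxidative stress genes, differed by 0.40, the homeodomain protein PKNOX1 by 0.41 and the nucleosome-binding protein HMGN1 by 0.27. Both HMGN1 probe sets agreed, at 0.27 and 0.23. The other PKNOX1 probe sets past the filter differed by 0.32 without overlap and by 0.05 with overlap. The bromodomain protein BRWD1 differed by 0.20, the arginine methyltransferase PRMT2 by 0.10, N6AMT1, a protein methyltransferase, by 0.08 and the nuclear ATPase MORC3 by 0.07, all with overlapping groups. A second PRMT2 probe set differed by 0.29 without overlap.

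NRIP1, a corepressor of nuclear receptors induced by androgen and oestrogen, is the transcription gene nearest the centromere. Its brightest probe set measured 9.09, 8.91 and 9.08 in control and 9.03, 9.25 and 9.15 in knockdown arrays, a difference of 0.12 with overlapping groups. The other measured 7.38, 7.22 and 7.17 against 6.68, 6.61 and 6.86, a difference of -0.54 without overlap. No direction is therefore given for NRIP1.

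The 6 genes of membrane traffic and signalling differed by 0.21 to 0.47. RCAN1, an inhibitor of the phosphatase calcineurin, measured 7.67, 7.79 and 7.98 in control and 8.18, 8.41 and 8.27 in knockdown arrays, a difference of 0.47 (SE 0.09), and its dim second probe set differed by -0.17. SYNJ1, a phosphoinositide phosphatase of clathrin-coated vesicles, measured 7.12, 7.09 and 7.25 against 7.63, 7.56 and 7.66, a difference of 0.46 (SE 0.06). DYRK1A, a kinase of neural growth and cell cycle exit, measured 8.96, 8.95 and 8.95 against 9.34, 9.39 and 9.32, a difference of 0.40 (SE 0.05). Groups did not overlap in any of these 3 on the brightest probe set. C2CD2, a lipid-transfer protein, differed by 0.38 without overlap and DIP2A by 0.21 with overlap.

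Of the 7 measured metabolic genes, GART among them, 2 were called higher and 0 lower, and 5 were not called. Over all genes tested, 19.4% were called higher and 16.5% lower, and nothing is read from this count. CBR1, a carbonyl reductase, measured 8.57, 8.62 and 8.56 in control and 9.04, 8.90 and 8.88 in knockdown arrays, a difference of 0.36 (SE 0.06). Its neighbour and close relative CBR3 measured 6.79, 6.85 and 6.91 against 6.80, 6.79 and 6.78 and overlapped. HLCS, which attaches biotin to carboxylases, differed by 0.13 and the sugar phosphate exchanger SLC37A1 by 0.15. POFUT2, which adds fucose to thrombospondin repeats, measured 6.01, 6.25 and 6.26 against 6.07, 6.02 and 6.01 on its brightest probe set, a difference of -0.14 with overlap, and its second probe set differed by 0.16.

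Of the remaining genes, the pericentriolar scaffold PCNT differed by 0.44 and the replication fork protein DONSON by 0.18, both without overlap. The call of DONSON was lost without control replicate 1 or 2 or without any 1 of the knockdown arrays. CCT8, a subunit of the chaperonin that folds actin and tubulin, differed by 0.15 and CSTB, an inhibitor of cathepsins, by 0.18. RWDD2B, beside USP16, differed by 0.17 and overlapped.

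Probe sets of the same gene often differed in size. Of the 50 genes, 20 had more than 1 single-symbol probe set past the filter. In 7 of these 20 the probe sets had opposite signs, in 7 they spread by more than 0.5, and 9 met either condition. The genes with opposite signs were NRIP1, SON, RCAN1, UBE2G2, SUMO3, POFUT2 and ADARB1. The brightest probe sets of the 20 genes had a median difference of 0.30, and the 28 others a median of 0.13, with 20 of the 28 above 0. Of the 28, 12 were higher and 5 lower without overlap. Over all genes tested the shares were 27.0% and 22.4%, and nothing is read from these counts.

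**Figure D4:**
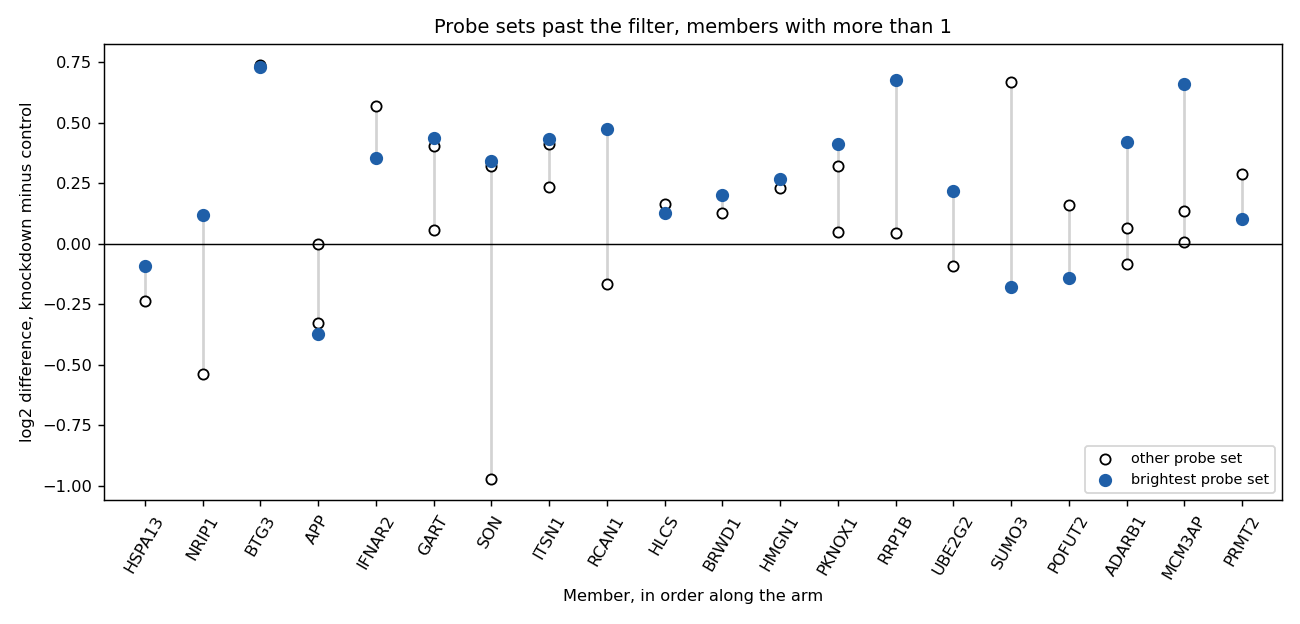
Log2 difference, knockdown minus control, of every single-symbol probe set past the filter for the 20 genes with more than 1, in order along the arm. Filled points are the brightest probe sets, which stand for the genes; SON spans -0.97 to 0.34 and SUMO3 -0.18 to 0.67.

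The genes whose brightest signal could not stand for them are given by probe set. BACE2, a protease related to the beta-secretase of APP, read 3.54, 4.05 and 3.80 in control and 3.71, 3.96 and 3.62 in knockdown arrays, under the filter level of log2 4 in 5 of 6 arrays. The single-symbol probe set of TRAPPC10, a vesicle tethering subunit, read 4.24, 3.75 and 3.68 against 3.87, 4.15 and 3.91. The 11 probe sets paired with RUNX1, a runt-domain transcription factor, and with 2 further loci averaged at most 5.19 in either group and differed by -0.11 to 0.12. The 6 probe sets paired with TTC3, a ubiquitin ligase, and with its pseudogene differed by -0.67 to 0.43. For none of these 4 genes is a level for the gene given.

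Genes on other chromosomes whose products work with those above were tested in the same fit. In the 6 lists, 45 genes were measured, with a median difference of 0.03. At an adjusted p under 0.05, 7 rose and 7 fell, against 19.4% and 16.5% of all genes. The lower count was 4 without control replicate 1 or 2 or without knockdown replicate 2. In APP processing, 2 of 10 genes rose and 3 fell. The APP homologue APLP2 rose by 0.80 (SE 0.05, limma adjusted p = 4.57e-05) and the alpha-secretase ADAM17 by 0.68 (SE 0.06, adjusted p = 2.15e-04). The falls were in the beta-secretase BACE1 (-0.28), the gamma-secretase subunit APH1B (-0.32) and the homologue APLP1 (-0.17). Without control replicate 1 or 2 or either of knockdown replicates 2 and 3, 1 gene fell, and without knockdown replicate 3, 4 rose.

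Of the 7 measured partners of the receptor cluster, 0 passed as higher and 1 as lower, where 35.9% of all genes passed in either direction. The kinase JAK2 fell by 0.74 (SE 0.06, limma adjusted p = 1.66e-04), while IFNGR1, the partner chain of IFNGR2, differed by 0.14 and IL22RA1, a partner of IL10RB, by 0.17. In de novo purine synthesis, where GART acts, 2 of 7 genes rose and 2 fell. PRPS1 fell by 0.36 and PPAT by 0.25, and ATIC rose by 0.25. Of the other measured chaperonin subunits beside CCT8, CCT7 rose by 0.29 and CCT6A fell by 0.25, and 4 of 6 did not pass. No chaperonin subunit passed as lower when any array other than knockdown replicate 3 was left out. In the small subunit processome of PWP2, 1 of 9 rose, the methyltransferase FBL by 0.32, and NOP14 differed by 0.21 without passing. Among nuclear receptors and coregulators that NRIP1 works with, 1 of 6 rose, the coactivator NCOA1 by 0.27, and ESR1 differed by 0.18. The counts for chaperonin, purine, processome and coregulator genes changed by 1 when some arrays were left out.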

How the data were processed

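Probe set intensities of 6 arrays were deposited by the authors on a linear scale. The submitters' processing notes name GCRMA, which corrects background, normalizes and summarises; its version is not given here. Array number limits the precision. Groups and replicate numbers came from sample titles. Of 22277 probe sets, 19064 had 1 symbol in the platform annotation, 1043 several, 2108 none, and 62 were controls.

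Analysis used log2 of these values. Probe sets under log2 4 in more than 3 arrays were dropped, and the brightest on average stood for its gene. Control means were subtracted from knockdown means in limma 3.58.1 with R 4.3.3 (lmFit, eBayes), with p-values adjusted by Benjamini-Hochberg over 9241 genes, and the scripts were tested on simulated data. The genes, runs, partner lists and the naming rule (array values for the 6 largest positive and 6 negative differences and the 2 of each per run, probe sets that disagree in sign or by over 0.5, the 3 most positive and negative other genes of the chromosome, and the 2 most different genes per partner list) were chosen with earlier results of these data known. Role groups, and BACE1, APH1B, APLP1, IFNGR1 and ATIC, were added after values were seen. Promoter windows and gene order came from RefSeq, GRCh38.p14. Python 3.11.15 was used for summaries. The 16 alternatives covered the filter, low values, scaling, probe sets, the variance model, the replicate number and each array.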

Additional observations from a re-analysis of the deposited data

Results flagged for a closer look

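Probe sets paired with several symbols stayed outside the gene tests. Of those that include a listed gene, 3 had all knockdown arrays above all control arrays. Those paired with RUNX1, SUMO3 or BACH1 did not, nor did another of TRAPPC10 or the other 4 of TTC3. Among all genes tested, 27.0% had all knockdown arrays above all control arrays, and nothing is read from this count. A TTC3 probe set, paired also with the pseudogene TTC3P1, measured 9.40, 9.53 and 9.54 in control and 9.92, 9.91 and 9.93 in knockdown arrays, a log2 difference of 0.43. Another TTC3 probe set differed by 0.30, while the other 4 TTC3 probe sets differed by -0.67 to -0.07 with overlapping groups. A TRAPPC10 probe set, paired with 1 further locus, measured 5.58, 5.38 and 5.58 against 5.76, 5.74 and 5.64, a difference of 0.20. Groups of 3 arrays are too small for a search for single outlying arrays.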

How the results depend on the processing

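All 16 alternatives were planned. Of the recomputed counts and medians of gene groups, 26 were counted as moved from the reported values and 198 were not. The 198 still include sizeable changes. With array weights, genes called higher went from 1793 to 2340 over all genes and from 30 to 37 among the listed genes. With the mean of all probe sets, listed genes called higher went from 30 to 24. The CBR1 to BACE2 median of 0.20 had a spread between replicates of 0.20, so a change in it could hardly stand out. Without _x_at and _s_at probe sets, which leaves fewer genes, 1089 genes were higher and 916 lower overall; of the listed genes 27 were tested, 15 called higher and 1 lower, 17 non-overlapping higher and 1 lower, the HSPA13 to BACH1 median was 0.084, the partner counts were 4 and 2, and ADARB1 reversed to -0.084. With the mean of all probe sets, dim ones included, the median of the listed genes was 0.17. That of SYNJ1 to RUNX1 was 0.15 and that of C2CD2 to PRMT2 was 0.22. SUMO3 reversed to 0.24, NRIP1 changed sign to -0.21, and PRMT2 also changed sign. In that setting 8 calls were lost, among them SON and DYRK1A, and calls of NRIP1 and HLCS were gained. With the filter at log2 6 the other genes of the chromosome had a median of 0.20. Higher partner genes numbered 13 with array medians subtracted, 12 with array weights, and 11 with the stricter filter and with trend and robust moderation. Further causes were not tested. Leaving out 1 array at a time gave medians of 0.31 to 0.38 for the listed genes and 0.15 to 0.24 for HSPA13 to BACH1. It gave 27 to 31 listed genes called higher and 1 to 2 lower, with 1269 to 1699 and 1176 to 1348 over all genes. Of the listed genes 2 to 4 were non-overlapping lower, and partner counts were 5 to 9 higher and 4 to 5 lower. WDR4 lost its call without control replicate 2 or 3 or knockdown replicate 1 or 2, ADARB1 without knockdown replicate 1 or 2, and UBE2G2 without control replicate 1 or 3 or knockdown replicate 1 or 3. No listed gene changed sign under quantile normalization or subtraction of array medians. Between arrays of equal replicate number, deviations from the group means correlated at 0.11, 8e-04 and 0.18. These values were not tested and do not settle whether the arrays were paired. With the replicate number as a block, 31 listed genes were called higher and 2 lower, and partner counts were 8 and 6. As in the main fit, nothing is read from counts of listed genes. Signal over background limits dim genes such as IFNAR1 and WDR4.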

Other observations

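The median difference of chromosome 21 genes was above that of all genes in each of 4 bands of signal, which leave out PLAC4, with a mean under log2 4. The 25 measured genes of the chromosome with a mean log2 intensity of 4 to 6 had a median difference of 0.13, the 39 at 6 to 8 one of 0.20, the 27 at 8 to 10 one of 0.27, and the 17 at 10 or more one of 0.21. The medians over all genes tested in the same 4 bands were 0.05, 0.01, 0.01 and 0.02. In the band of 4 to 6, 4 of the 25 genes were called higher and 0 lower, and over all 2721 genes there 330 were called higher and 248 lower. The listed and the other genes of the chromosome were not equally bright: 22 of the 59 other genes lay in the dimmest band, against 3 of the 50 listed genes. Within the band of 6 to 8, the 20 listed genes had a median of 0.27 and the 19 other genes one of 0.17. Within 8 to 10, the medians were 0.39 over 19 genes and 0.21 over 8. The listed genes were chosen with this comparison in view and are part of the chromosome medians above. Nothing is therefore read from these bands about the listed genes or their distance from the other genes.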
